A study of Mus musculus with 6 samples.

Results

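The mitosis and G2/M genes are 34 genes whose products carry a cell from the end of DNA replication through chromosome segregation and cytokinesis. They were selected by gene symbol from the deposited table, where each of the 34 had 1 row among 21899 genes, and all 34 passed the expression filter that left 14553 genes for testing. RNA was sequenced from the colon of Adamts4 knockout mice (KO) and wild-type mice (WT), 3 libraries each, and both groups had received 2.5% dextran sodium sulfate (DSS), a polysaccharide that injures the colonic epithelium, for 7 days. No label used here names the knockout allele, strain, age, sex or litter, and the effects of genetic background and of losing this protease cannot be told apart. Untreated animals were not analysed here.

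Entry into mitosis depends on cyclin-dependent kinase 1 bound to a B-type cyclin. Polo-like and Aurora kinases then organise the spindle and centromeres, the spindle checkpoint holds anaphase until every kinetochore is attached, and the anaphase promoting complex with its activator CDC20 releases the block by marking securin and cyclin B for degradation. Transcription of these genes peaks in G2 and M through the MuvB core with B-MYB and FOXM1, and in quiescent cells the same core in the DREAM complex represses them. In the colon most dividing cells lie in the lower crypt, and division there replaces epithelium lost to injury. In whole tissue, fewer dividing cells and less of these transcripts per cell cannot be told apart.

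The KO libraries had no Adamts4 count, and the WT libraries had 900, 992 and 997. Total counts per library ran from 15786214 to 22932125. KO 3 stood apart from the other libraries on the first principal component, and its fibroblast and endothelial marker sums were the lowest of the 6. Epcam, a surface protein of epithelium, lay between 1198 and 1638 CPM (counts scaled to a common library size with TMM factors, here and throughout) in the 6 libraries. Whether each library came from its own animal is not in the labels, and the p-values rest on library spread that may be technical.

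All 34 genes had a higher fitted level in KO than in WT, but none passed the test over all genes. The log2 fold changes (KO minus WT) ran from 0.24 for Kif2c to 1.42 for Ttk with a median of 0.58, beside a median of 0.03 over all genes tested. In edgeR's quasi-likelihood test 0 of 34 were called higher and 0 lower at an adjusted p below 0.05, with adjusted p between 0.382 and 0.837, where the background was 0.00687% of genes called higher and 0.151% called lower. At an unadjusted p below 0.05 there was 1 of the 34 (Cdk1), against 5.17% of all genes tested in the upward direction. DESeq2 called 0 of 34, against 0.677% of its genes called higher and 2.75% lower, with 6 at an unadjusted p below 0.05 against 4.56%. limma-voom also called 0 of 34, against 0.0137% higher and 0.186% lower. In the authors' deposited table the FDR of the 34 genes lay between 0.285 and 0.956. A log2 fold change above 0 was found for 54.2% of all genes tested, and the genes share libraries and regulators, so the common sign is not 34 separate observations.

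The size of the difference rested largely on WT 1. WT 1 held the lowest level of the 6 libraries for 32 of the 34 genes, a pattern found for 14.7% of all genes tested. For 26 of the 34 it lay under 0.5 times the level of each of the other WT libraries, against 2.77% of all genes tested. Relative to the mean of WT 2 and WT 3, WT 1 had a median log2 difference of -1.19 for these genes and 0.01 for all genes tested. Without WT 1, 30 of the 34 log2 fold changes remained above 0 (53.4% of all genes), the median was 0.25, and the lowest adjusted p was 0.620, so 0 of 34 were called (0.00678% of all genes higher and 0.0339% lower). The 4 genes then below 0 were Ccnb1, Aurka, Kif20a and Kif2c.

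**Figure D1:**
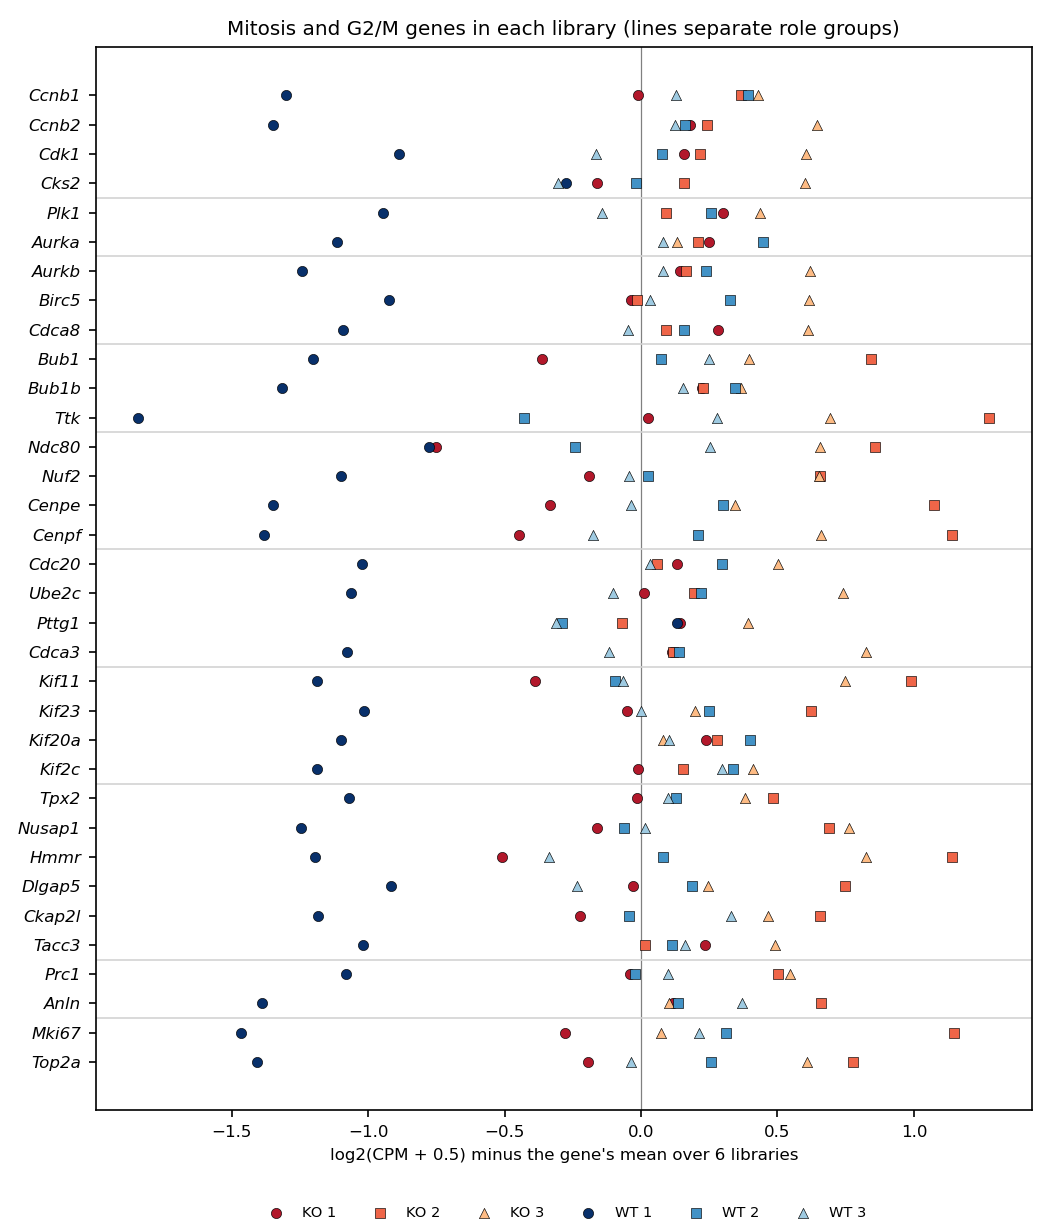
Level of each of the 34 genes in each library, as log2(CPM + 0.5) minus the gene's mean over the 6 libraries, with lines between role groups; each point is 1 library. WT 1 (dark circles) lies to the left of all other libraries for 32 genes, with Cks2 and Pttg1 as the exceptions, and KO 2 or KO 3 lies farthest to the right for 32 genes.

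The summed level of the 34 genes was 585.8, 811 and 817 CPM in KO 1, KO 2 and KO 3 and 276, 663 and 587 CPM in WT 1, WT 2 and WT 3. KO 2 and KO 3 lay above every WT library, while KO 1 lay with WT 3 and below WT 2. The groups therefore overlapped (738 ± 132 in KO and 509 ± 205 in WT, SD, n = 3). Single genes overlapped as well. Only Cdk1 and Ccnb2 had all KO values above all WT values, 2 of 34 against 9.34% of all genes tested. Taken for KO 2 and KO 3 alone, 17 of 34 lay above all WT libraries, against 17.4% of all genes tested. These are the KO libraries with the highest sums of the same genes, so this count is a description and not separate support.

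The promoters of many of these genes carry a shared element, given here as background. Whether it has a part in the levels of these libraries was not tested. The cell cycle homology region, the DNA site of the MuvB core, was searched as TTTGAA or TTCGAA, and the CCAAT box, the site of NF-Y, as CCAAT, both on either strand. RefSeq promoter sequences (GRCm38.p6) were matched for 30 of the 34 genes. The homology motif lay between 100 bases before and 50 bases after the start in 21 of 30 genes (70.0%), against 9.87% of 27025 genes in the promoter table. A CCAAT match was found in the same window in 20 of 30 (66.7%), against 26.3%. Both were present in 17 genes, and in 1 of them, Cdca8, the motifs shared a base. In 14 genes the homology motif lay after the start, among them Ccnb2, Hmmr, Plk1 and Aurka, where its first base was base 5, 9, 31 and 33 of the transcript. In 8 genes (26.7%) it lay in the 100 bases before the start, against 7.18% of all genes in the table. Over 250 bases before the start the share was 36.7%, against 19.6% of all genes and 22.7% of the replication genes. A match is a description of the letters and not a measured binding site.

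The 100 bases before the RefSeq start are printed for the 3 genes of smallest unadjusted p that hold the homology motif there (Cdk1, Kif11 and Prc1) and for the one of largest p (Mki67). Capitals mark TTTGAA, its reverse complement TTCAAA, and CCAAT or its reverse complement ATTGG. Cdk1 lies on the minus strand at chr10:69352913-69353012, Kif11 on the plus strand at chr19:37376282-37376381, Prc1 on the plus strand at chr7:80294376-80294475, and Mki67 on the minus strand at chr7:135716380-135716479.
Cdk1: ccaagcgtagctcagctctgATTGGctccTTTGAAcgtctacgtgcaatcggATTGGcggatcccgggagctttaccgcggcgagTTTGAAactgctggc
Kif11: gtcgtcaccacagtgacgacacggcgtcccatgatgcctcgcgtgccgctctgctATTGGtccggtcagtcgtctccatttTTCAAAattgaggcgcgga
Prc1: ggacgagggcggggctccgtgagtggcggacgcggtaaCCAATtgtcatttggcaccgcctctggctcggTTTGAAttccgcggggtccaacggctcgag
Mki67: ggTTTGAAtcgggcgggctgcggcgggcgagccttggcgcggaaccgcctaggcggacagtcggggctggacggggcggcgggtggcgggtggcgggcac
Cdk1 holds the homology motif in 2 places, 15 and 71 bases before the start, with a CCAAT box upstream of each. Kif11 holds it on the reverse strand 19 bases before the start and Prc1 30 bases before. In Mki67 the nearest match lies 98 bases before the start and the printed bases hold no CCAAT box.

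**Figure D2:**
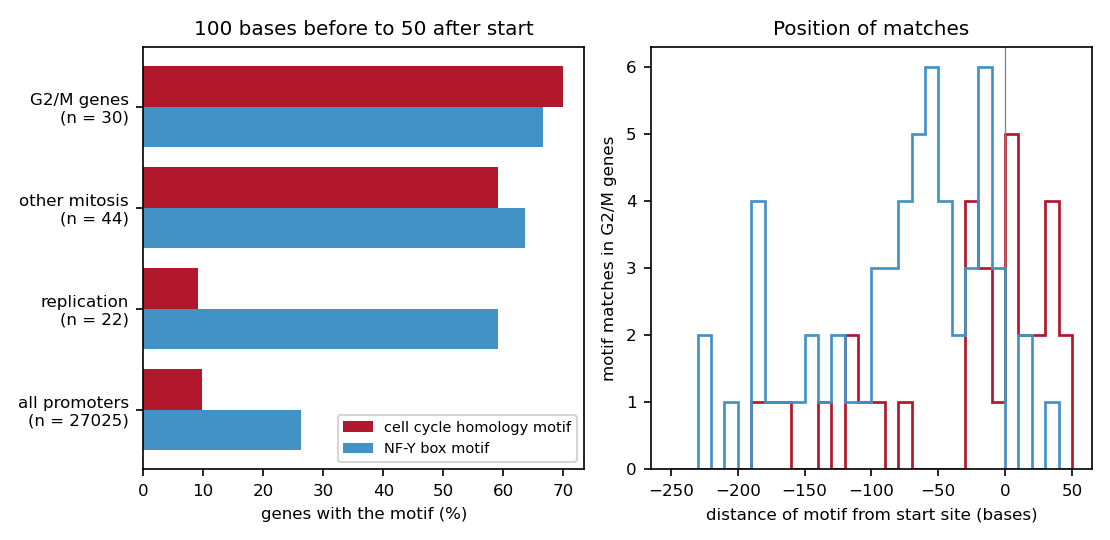
Left, share of genes (%) with each motif from 100 bases before to 50 after the start, for the G2/M genes, a list of other mitosis genes, DNA replication genes and all genes of the RefSeq table. Right, number of matches by distance from the start in 10-base bins, with both Prc1 promoters counted; the NF-Y box is the CCAAT match. The homology motif is in 70.0% of the G2/M genes and 9.09% of the replication genes.

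The motif was also more frequent in mitosis genes outside the 34 than in replication genes. Among other genes of the mitotic machinery 26 of 44 held the homology motif in that window (59.1%), and among DNA replication genes 2 of 22 did (9.09%). The CCAAT box was found in 63.6% and 59.1% of these lists. The replication genes were also lowest in WT 1, as given further on, and a part of the motif in the WT 1 levels was not tested.

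The cyclin B and CDK1 engine comprised Cdk1, Ccnb1, Ccnb2 and the CDK1 docking subunit Cks2, with log2 fold changes of 0.38 to 0.62. Cdk1 stood at 28.0, 29.2 and 38.5 CPM in KO 1, KO 2 and KO 3 and at 13.3, 26.5 and 22.3 CPM in WT 1, WT 2 and WT 3. Every KO value exceeded every WT value, though KO 1 and WT 2 were only a little apart. Its log2 fold change of 0.62 ± 0.27 (SE, 95% interval 0.01 to 1.24) had the smallest adjusted p of the 34 genes, 0.382, and was 0.38 without WT 1. Cdk1 occupies chromosome 10, 69335146 to 69352938 on GRCm38 (minus strand, GENCODE M21).

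Ccnb2 had 19.7, 20.6 and 27.4 CPM in KO and 6.50, 19.5 and 18.9 CPM in WT. The KO libraries again lay above the WT libraries, with KO 1 and WT 2 close together (0.59 ± 0.38, adjusted p = 0.552). Ccnb1, the other mitotic B cyclin, had 22.4, 29.3 and 30.6 CPM in KO and 8.89, 29.9 and 24.8 CPM in WT, so WT 2 exceeded KO 1 and KO 2 (0.38 ± 0.39, adjusted p = 0.728). Cks2 differed from the rest of the group in WT 1, which at 17.1 CPM was not below WT 3 at 16.8 CPM. WT 2 had 20.6 CPM and the KO libraries 18.5, 23.3 and 31.8 CPM of Cks2 (0.44 ± 0.23, adjusted p = 0.453), and without KO 3 its log2 fold change was 0.20.

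The mitotic kinases Plk1 and Aurka drive mitotic entry and centrosome maturation. Plk1 had 38.7, 33.4 and 42.5 CPM in KO and 16.0, 37.5 and 28.3 CPM in WT. WT 2 lay within the KO range (0.49 ± 0.29, adjusted p = 0.518). Aurka was almost level among KO libraries, at 17.4, 16.9 and 16.0 CPM, and its highest value was in WT 2, with 6.46, 20.0 and 15.4 CPM in WT 1, WT 2 and WT 3. Its log2 fold change of 0.27 ± 0.36 (adjusted p = 0.797) went to -0.09 without WT 1.

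The chromosomal passenger complex corrects faulty attachments at centromeres and includes the kinase Aurkb with survivin (Birc5) and borealin (Cdca8). Aurkb had 14.0, 14.2 and 19.6 CPM in KO and 5.05, 15.0 and 13.4 CPM in WT. Cdca8 had 19.3, 16.9 and 24.4 CPM in KO and 7.14, 17.7 and 15.3 CPM in WT. Birc5 had 15.1, 15.3 and 23.9 CPM in KO and 7.91, 19.5 and 15.8 CPM in WT. In all 3 genes KO 3 was highest and WT 1 lowest. The other libraries were interleaved for Aurkb and Cdca8, and for Birc5 both WT 2 and WT 3 lay above KO 1 and KO 2. The log2 fold changes were 0.52 ± 0.38, 0.60 ± 0.33 and 0.33 ± 0.34, and without WT 1 they were 0.16, 0.29 and 0.03.

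The spindle checkpoint group held Ttk, Bub1 and Bub1b, and Ttk had the widest interval of the 34 genes. Ttk, which recruits checkpoint proteins to unattached kinetochores, had 2.41, 6.44 and 4.13 CPM in KO and 0.299, 1.63 and 2.98 CPM in WT, from 7 counts in WT 1 to 104 in KO 2. Its log2 fold change of 1.42 was the highest of the 34 genes, with an SE of 0.70 and a 95% interval of -0.18 to 3.02 (adjusted p = 0.431). KO 1 lay below WT 3. Bub1, which marks centromeric chromatin, ranged from 2.62 to 6.69 CPM in KO and 1.24 to 4.27 CPM in WT (0.61 ± 0.51). Bub1b, the checkpoint protein BUBR1, was nearly constant in KO at 23.7, 23.7 and 26.2 CPM, against 7.83, 25.8 and 22.6 CPM in WT, and stood at 0.01 without WT 1.

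The 4 kinetochore and centromere genes had the highest median log2 fold change of the role groups, 0.77, with a range of 0.72 to 0.95. Without WT 1 the group median was 0.45. All 4 are in the low-GC set described further on, and with the GC offset given there they ran from 0.57 to 0.80. Nuf2 and Ndc80 form the microtubule-binding arm of the NDC80 complex, and Cenpe and Cenpf encode large kinetochore proteins. Nuf2 had 4.06, 7.68 and 7.67 CPM in KO and 1.92, 4.79 and 4.55 CPM in WT. KO 2 and KO 3 were above all WT libraries and KO 1 was not (0.79 ± 0.41, adjusted p = 0.455). Ndc80 had 0.925 CPM in KO 1, close to 0.898 in WT 1, and 3.84 and 3.27 CPM in KO 2 and KO 3. Cenpf had 5.44, 17.3 and 12.3 CPM in KO and 2.61, 8.86 and 6.68 CPM in WT (0.95 ± 0.52, adjusted p = 0.474). Cenpe shared this order, with 6.22, 17.3 and 10.3 CPM in KO and 2.82, 9.93 and 7.75 CPM in WT. In the authors' deposited table, where levels are per length, the log2 fold change of Cenpf is 0.31. The deposited TPM of Cenpf in WT 2 is as high as in KO 2 although its count is lower.

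Genes of anaphase and mitotic exit were Cdc20, the ubiquitin-conjugating enzyme Ube2c and securin (Pttg1), with Cdca3 listed alongside them. Cdc20 had 25.6, 24.3 and 33.3 CPM in KO and 11.2, 28.8 and 23.9 CPM in WT. WT 2 exceeded KO 1 and KO 2 (0.38 ± 0.33, adjusted p = 0.665). Cdca3 had 29.4, 29.5 and 48.4 CPM in KO and 12.6, 29.9 and 25.0 CPM in WT, with KO 3 alone above the other libraries (0.67 ± 0.34, adjusted p = 0.442). Ube2c ranged from 33.5 to 55.9 CPM in KO and from 15.7 to 38.9 CPM in WT.

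Pttg1, the inhibitor of separase, did not follow the other genes. It had 31.8, 27.4 and 38.0 CPM in KO and 31.6, 23.5 and 23.1 CPM in WT, so WT 1 was the highest WT library. Its log2 fold change of 0.31 ± 0.20 became 0.47 without WT 1 (adjusted p = 0.620) and 0.19 without KO 3. Across the 6 libraries the Pearson r of Pttg1 with the mean of the other 33 genes was -0.06, while the median over the 34 genes was 0.93. Of 561 gene pairs 520 had r above 0.5, with a median of 0.87. These correlations describe 6 points that share library composition and depth, and 1 of the points is WT 1, the lowest library for 32 of the 34 genes. The share over pairs of all tested genes was not computed.

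The mitotic kinesins were Kif11, which slides spindle poles apart, Kif23 and Kif20a of the midzone, and the microtubule depolymerase Kif2c. Kif11 had 7.45, 20.1 and 17.0 CPM in KO and 4.06, 9.22 and 9.43 CPM in WT. KO 2 and KO 3 lay well above the WT libraries and KO 1 lay below WT 2 and WT 3. Its log2 fold change of 0.97 ± 0.43 had a 95% interval of -0.02 to 1.97 (adjusted p = 0.391), and was 0.66 without WT 1. Kif23 ranged from 12.3 to 19.95 CPM in KO and from 6.07 to 15.3 CPM in WT. Kif20a had its highest value in WT 2, 25.1 CPM, against 22.4, 23.0 and 20.0 CPM in KO. Kif2c had the smallest difference of the 34 genes, 0.24 ± 0.41 with an interval of -0.69 to 1.18.

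Spindle assembly genes included Tpx2, the activator of Aurora A, the microtubule binders Nusap1 and Hmmr, and Dlgap5, Ckap2l and Tacc3, with log2 fold changes of 0.43 to 1.14. Hmmr had 2.98, 10.4 and 8.26 CPM in KO and 1.67, 4.74 and 3.42 CPM in WT. KO 1 again lay below WT 2 and WT 3, while KO 2 and KO 3 were above every WT library (1.14 ± 0.52, adjusted p = 0.399). Nusap1 had 7.09, 13.2 and 13.9 CPM in KO and 3.08, 7.64 and 8.08 CPM in WT (0.87 ± 0.41, adjusted p = 0.415). Tacc3, by contrast, was lower in KO 2 (17.97 CPM) than in WT 2 (19.3 CPM) and WT 3 (19.9 CPM).

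The cytokinesis genes were Prc1, which bundles midzone microtubules, and anillin (Anln), a scaffold of the contractile ring. Prc1 had 17.2, 25.2 and 26.0 CPM in KO and 8.08, 17.4 and 18.9 CPM in WT (0.63 ± 0.33, adjusted p = 0.456). Anln had 12.2, 18.03 and 12.1 CPM in KO and 3.98, 12.4 and 14.7 CPM in WT (0.45 ± 0.43, adjusted p = 0.706). WT 3 exceeded KO 1 and KO 3 for Anln, and KO 1 alone for Prc1.

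Mki67, the most used marker of dividing cells, had 47.9, 129.6 and 61.3 CPM in KO and 20.7, 72.3 and 67.6 CPM in WT. KO 2 was highest and WT 1 lowest, and KO 1 and KO 3 lay below WT 2 and WT 3. The log2 fold change of 0.57 ± 0.50 (95% interval -0.58 to 1.72, adjusted p = 0.676) became 0.17 without WT 1 and 0.03 without KO 2. Top2a, the topoisomerase that disentangles sister chromatids, had 38.0, 75.0 and 66.6 CPM in KO and 16.1, 52.1 and 42.4 CPM in WT (0.70 ± 0.42, adjusted p = 0.518). For Top2a only KO 1 lay below WT 2 and WT 3.

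**Figure D3:**
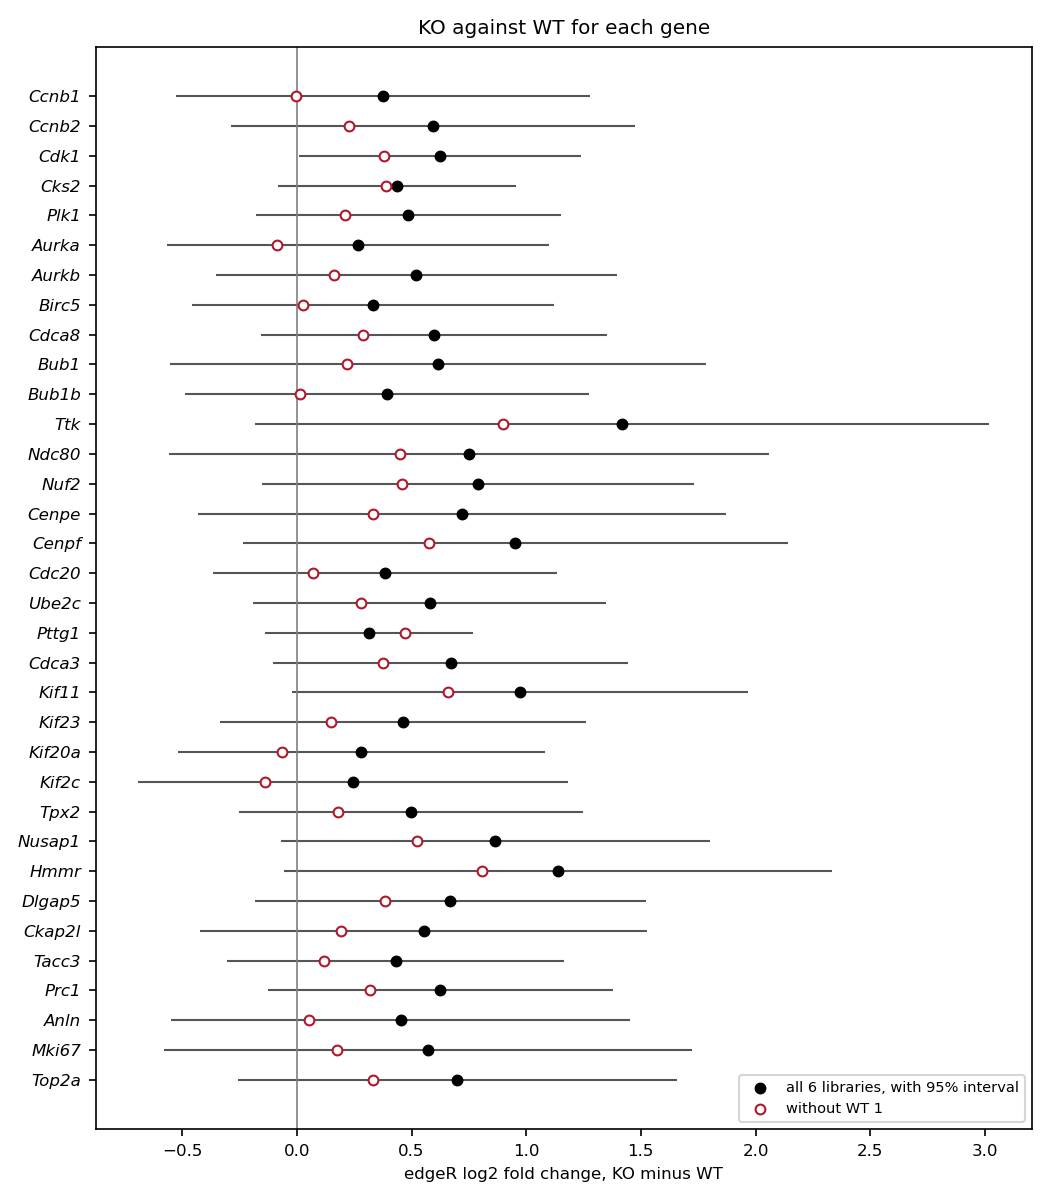
edgeR log2 fold change (KO minus WT) of each gene with all 6 libraries (filled points, lines are 95% intervals) and without WT 1 (open points). All filled points lie above 0 and 33 of 34 intervals span 0, and the open points have a median of 0.25.

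Precision limited what could be read from single genes. The 95% intervals of 33 of the 34 genes spanned 0, and those of 32 included 1 log2 unit, the exceptions being Cks2 and Pttg1. The median SE of the 34 genes was 0.38, against 0.23 over all genes tested. On the length-scaled levels of the authors (TPM), the highest means in KO belonged to Pttg1 (77.3 TPM), Ube2c (77.2) and Cks2 (62.3) and the lowest to Cenpf (1.88), Ndc80 (2.16) and Bub1 (2.46).

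The KO libraries themselves differed in which of these genes were high. KO 2 held the highest level for 15 genes (20.4% of all genes tested) and KO 3 for 17 (23% of all), with the other 2, Aurka and Kif20a, highest in WT 2. KO 1 was highest for none, against 17.6% of all genes tested. The split went with the base composition of the transcripts, which was itself related to their length. Among the 17 genes whose longest coding transcript (GENCODE M21) had a GC share below their median of 46.2%, 12 were highest in KO 2 and 5 in KO 3. Of the 17 others, 3 were highest in KO 2 and 12 in KO 3. The median log2 difference of KO 2 minus KO 1 was 0.88 in the low-GC genes and 0.02 in the high-GC genes, and over all tested genes divided at the same share it was 0.41 and -0.17. Spearman's rho between this difference and GC was -0.82 across the 34 genes and -0.58 across 14353 tested genes, as a description, since genes of the same libraries are not independent. Hmmr (1.65), Ndc80 (1.61) and Cenpf (1.59) had the largest differences and Tacc3 (-0.22) the lowest. KO 2 minus KO 1 also had a rho of 0.60 with transcript length across the 34 genes, and 0.19 across the tested genes. Length and GC had a rho of -0.47 with each other in the 34 genes. KO 3 minus KO 1 had a rho of -0.63 with GC across the 34 genes and -0.21 across the tested genes.

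The relation to GC was not seen for WT 1 in the 34 genes. Its difference from WT 2 and WT 3 had a rho of 0.03 with GC across the 34 genes, with medians of -1.22 in the low-GC and -1.18 in the high-GC genes. Across all tested genes the rho of this difference with GC was 0.12. With transcript length it was -0.28 across the 34 genes and -0.19 across the tested genes. The KO against WT log2 fold changes had a rho of -0.60 with GC across the 34 genes and -0.13 across all tested genes. With a GC-dependent offset for each library, an alternative added after the data were seen, all 34 genes stayed above 0, the median was 0.53, the lowest adjusted p was 0.327 and that rho was -0.37. With that offset and without WT 1 the median was 0.22.

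**Figure D4:**
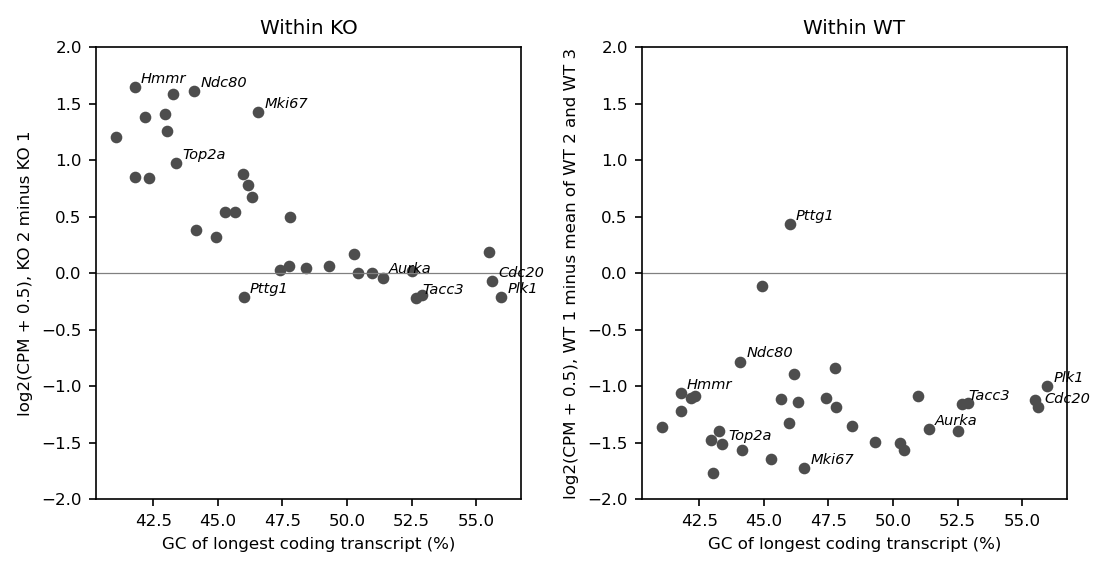
Difference in log2(CPM + 0.5) between libraries of 1 group against the GC share (%) of the longest coding transcript for the 34 genes; each point is a gene. KO 2 minus KO 1 runs from 1.65 (Hmmr) at low GC to -0.22 (Tacc3) at high GC. The ranges of the low-GC genes (-0.21 to 1.65) and the high-GC genes (-0.22 to 1.43) overlap. WT 1 lies below the mean of WT 2 and WT 3 for every gene except Pttg1.

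Other cell cycle genes are given below as lists, and a difference in cell cycle stage was not tested. Of 50 other genes of the mitotic machinery 48 had log2 fold changes above 0 (median 0.42), and 0 were called in edgeR or DESeq2. WT 1 was the lowest library for 46 of the 50, against 14.7% of all genes tested. Without WT 1 the median was 0.12 with 34 above 0. The smallest p-values there belonged to the centromere protein gene Cenpn (3.85 ± 0.675 CPM in KO and 1.90 ± 0.594 in WT, SD, n = 3, adjusted p = 0.265), the checkpoint gene Mad2l1 (25.8 ± 8.54 and 14.9 ± 4.81 CPM, adjusted p = 0.361) and the kinetochore gene Dsn1 (4.13 ± 0.239 and 2.54 ± 0.787 CPM, adjusted p = 0.393).

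Among 19 tested genes of G2/M entry and transcription 16 lay above 0 (median 0.34) and none was called. Foxm1, the transcription factor of this program, had 15.8 ± 2.25 CPM in KO and 15.1 ± 8.38 in WT (0.07 ± 0.42, adjusted p = 0.957), and Mybl2, which encodes B-MYB, 10.7 ± 2.40 and 7.06 ± 3.82 CPM (0.60 ± 0.44, adjusted p = 0.610). Ccna2, the cyclin of S phase and G2, had 47.6 ± 5.98 and 33.2 ± 15.2 CPM (0.52 ± 0.34, adjusted p = 0.560). Wee1, the kinase that holds CDK1 inactive, had 16.8 ± 1.69 and 11.6 ± 1.26 CPM (0.53 ± 0.18, adjusted p = 0.284). Bora, a cofactor of Aurora A, and Cks1b, a paralogue of Cks2, had log2 fold changes of 0.65 ± 0.23 and 0.64 ± 0.24. Wee1, Bora and Cks1b had KO values above all WT values, 3 of 19 against 9.34% of all genes tested. Their log2 fold changes without WT 1 were 0.44, 0.63 and 0.54. Without WT 1 the value was -0.32 for Foxm1, 0.20 for Mybl2 and 0.18 for Ccna2, and the median of the list was 0.11.

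All 26 genes of the DNA replication and S phase list lay above 0 with a median of 0.67, and KO and WT did not overlap for 13 of 26, against 9.34% of all genes tested. None was called in edgeR or DESeq2, and 11 had an unadjusted p below 0.05 against 5.17%. The smallest p-values were those of the licensing factor Cdt1 (22.9 ± 3.24 and 13.4 ± 3.07 CPM, adjusted p = 0.219), Gins2 of the replicative helicase (42.0 ± 6.14 and 24.4 ± 6.66 CPM, adjusted p = 0.227) and the sliding clamp Pcna (109.8 ± 14.3 and 78.0 ± 10.3 CPM, adjusted p = 0.254). WT 1 was the lowest library for all 26 genes, against 14.7% of all genes tested. Without WT 1 the median was 0.37 with 26 above 0. KO 1 had 862 CPM of summed replication genes, above all WT libraries (356 to 668 CPM), whereas its summed level of the 34 mitosis genes lay within the WT range. The ratio of the 2 sums was 0.680, 1.13 and 0.830 in KO and 0.775, 0.993 and 0.887 in WT, so it did not differ by genotype beyond the spread (0.879 ± 0.227 and 0.885 ± 0.109).

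Genes of G1 and the G1/S step lay above 0 in 18 of 20 (median 0.39), led by cyclin D1 (Ccnd1, 143 ± 20.5 and 95.5 ± 21.3 CPM, adjusted p = 0.285), E2f6 (adjusted p = 0.337) and Cdk6 (adjusted p = 0.345). Subunits and partners of the anaphase promoting complex had a median of 0.13, with Cdc26 (0.33 ± 0.15), Ube2s (0.36 ± 0.17) and Anapc13 (0.38 ± 0.22) first by p. CDK inhibitors and p53 arrest genes had a median of -0.16, with 7 of 15 above 0. In this list 2 genes were lower at an unadjusted p below 0.05 (7.85% of all genes tested), and 4 had all KO values below all WT values (10.2% of all). Btg2, an antiproliferative p53 target, had 108 ± 3.35 CPM in KO and 141 ± 1.51 in WT (-0.39 ± 0.12, adjusted p = 0.240), Sesn1 18.7 ± 3.30 and 25.0 ± 0.747 CPM (adjusted p = 0.379), and Cdkn1a, the p21 inhibitor, 162 ± 6.28 and 195 ± 16.0 CPM (-0.26 ± 0.14, adjusted p = 0.452). Cdkn2b, another CDK inhibitor, was among the 7 above 0, with 56.4 ± 15.5 CPM in KO and 40.3 ± 10.1 in WT (0.49 ± 0.25, adjusted p = 0.453). None of these lists held a call in edgeR or DESeq2.

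**Figure D5:**
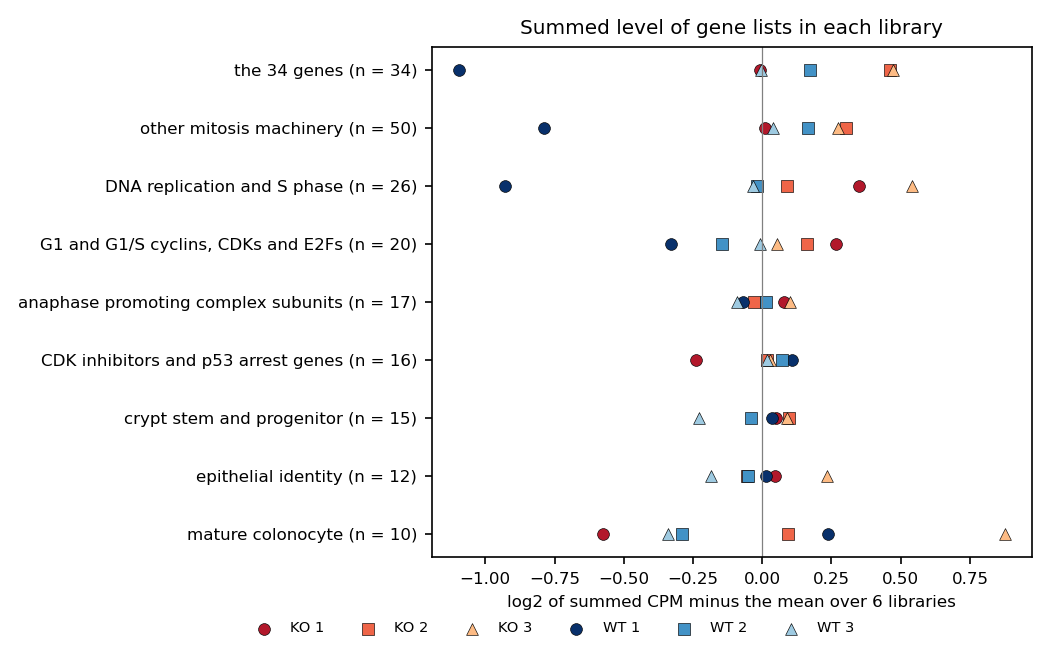
Summed CPM of each gene list in each library, as log2 minus the mean over the 6 libraries; each point is 1 library. WT 1 stands far to the left for the 34 genes, the other mitosis genes and the replication genes, and lies among the other libraries for the epithelial identity list.

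None of the 12 epithelial identity genes was lowest in WT 1, a position found for 14.7% of all genes tested. The summed level of 12 epithelial identity genes was 12448 CPM in WT 1 against 11896 and 10863 in WT 2 and WT 3, and 12742, 11878 and 14526 CPM in KO. Scaled to the summed level of these epithelial genes (CPM per 1000 epithelial CPM), the 34 mitosis genes stood at 46.0, 68.3 and 56.2 in KO and 22.1, 55.7 and 54.0 in WT. On this scale too WT 1 was lowest and KO 1 lay below WT 2 and WT 3 (56.8 ± 11.2 and 44.0 ± 18.9, SD, n = 3). The scale does not account for the mix of crypt and mature epithelium. The summed level of 10 mature colonocyte genes was 8522 CPM in WT 1 and 5909 and 5714 in WT 2 and WT 3. In KO 1, KO 2 and KO 3 it was 4850, 7714 and 13263 CPM. The part of this mix in the mitosis gene levels was not tested. Of 14 tested crypt stem and progenitor genes 11 were lowest in WT 1, against 14.7% of all genes tested. Prom1, a surface protein of progenitors, made up much of the summed level of this list and went the other way, with 718 CPM in WT 1, 552 in WT 2 and 431 in WT 3. The list had a median log2 fold change of 0.77 that was 0.66 without WT 1. In edgeR 0 of 14 were called, and DESeq2 called 8 higher, against 0.677% of its genes.

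Lists of immune cells, whose lymphocytes can also divide, varied in other ways. B cell marker sums were 46.8 CPM in WT 1 against 80.3 and 71.5 in WT 2 and WT 3, and ran from 17.4 to 123 CPM in KO. T cell marker sums were 46.7 CPM in WT 1 and 82.5 and 74.2 CPM in the other WT libraries, and 40.3, 43.7 and 89.8 CPM in KO. Of 8 germinal centre B cell markers 6 were tested and all 6 lay below 0 in KO (median -0.69). In the other lists the median log2 fold change was -2.41 for neutrophil, -2.31 for erythroid, -1.28 for plasma cell, -0.80 for macrophage and monocyte, -0.79 for endothelial, -0.38 for fibroblast and 0.57 for smooth muscle markers. None of their genes was called in edgeR. DESeq2 called 4 of 8 neutrophil, 4 of 8 plasma cell, 2 of 7 erythroid and 2 of 8 endothelial genes lower, against 2.75% of its genes. It called 3 of 8 smooth muscle genes higher, against 0.677%. The part of any of these lists in the levels of the mitosis genes was not tested.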

How the data were processed

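RNA sequencing of DSS-treated colon was analysed in 3 Adamts4 knockout and 3 wild-type libraries, with Trizol extraction and a SMARTER mRNA-Seq library kit (per the labels). Builds GRCm38, mm10 and mm39 are listed, with no role, in the submitters' processing notes. No source used here states the aligner, counter, strand setting or annotation. The authors deposited whole-number read counts per gene, TPM values, a log2 fold change and p-values with FDR. The deposited log2 fold change equals the log2 ratio of mean TPM within 0.01 for all 16669 genes checked, and p-values were copied from the authors' deposited table as they stand. The per-sample columns not used here number 0.

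Counts were tested with edgeR 4.0.16 in R 4.3.3 (TMM factors, default filter by group, quasi-likelihood F-test, Benjamini-Hochberg adjustment over 14553 genes). Adjusted p-values are from this fit unless a sentence names another tool, a library left out, a GC offset or a block. Standard errors derive from the F statistic and are approximate. Alternatives were DESeq2 1.42.0, limma 3.58.1 (voom, and log2(TPM + 1)), other factors and filters, a replicate block, an adjusted p below 0.1 and each library left out. A GC offset was added after the data were seen. Differences between libraries use log2(CPM + 0.5). The model was tested on simulated counts. The genes and lists were chosen with earlier results of these data known. Values per library were given for the gene of smallest p in each role group and for 10 genes named in the plan, and outside the 34 genes for the 3 of smallest p per cell cycle list, Foxm1, Mybl2, Ccna2 and Cdkn1a. Other genes named with values, such as Pttg1 and Cks2, were chosen after their values were seen. Promoters were printed only for genes whose homology motif lies before the start, so genes such as Hmmr and Cdca3, with a smaller p than Prc1 and the motif after the start, were passed over.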

Additional observations from a re-analysis of the deposited data

How the results depend on the processing

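None of the 34 genes was called in any of the 17 alternatives, and the lowest adjusted p among them was 0.153. Of 578 gene and alternative combinations, 570 kept direction and side of the threshold, and 8 reversed, all in fits without WT 1. Without a library the log2 fold changes ran from -0.0027 to 0.71 for Ccnb1, -0.087 to 0.62 for Aurka, -0.064 to 0.60 for Kif20a and -0.14 to 0.49 for Kif2c. With the GC offset and no WT 1 they were -0.071, -0.054, -0.057 and -0.11 in the same order. The median of the 34 genes lay between 0.25 and 0.78 without a library and between 0.47 and 0.68 in the other fits with all 6 libraries and no GC offset. For the calls over all genes (1 higher, 22 lower), median-ratio factors gave 0 and 9, upper-quartile factors 1 and 38, DESeq2 106 and 431, limma-voom 2 and 27, no count filter 3 and 66, limma on log2(TPM + 1) 2 and 66, an adjusted p below 0.1 20 and 114, the GC offset 0 and 3, and that offset without WT 1 gave 1 and 2. Leaving out 1 library gave 0 to 2 higher and 1 to 29 lower. With the replicate number as a block 3 and 78 were called, the median of the 34 genes was 0.64 and their lowest adjusted p was 0.239. The deviations of same-numbered libraries correlated at -0.42, -0.15 and -0.43, and no library correlated best with its own number. With 3 libraries per group this cannot show whether equal numbers share a litter or batch, and the labels do not say. Ttk had as few as 7 counts in a library. The cause of these dependences was not tested.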
